A study of Rattus norvegicus with 14 samples.

Results

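The growth hormone and insulin-like growth factor (IGF) axis of rat liver was followed through 10 genes chosen by name for their place in it: the ligands Igf1 and Igf2, the carrier proteins Igfals, Igfbp3, Igfbp1 and Igfbp2, the receptors Ghr and Igf1r, the transducer Stat5b and the feedback inhibitor Socs2. The choice was made with earlier results of these data known. All 10 were measured, each by 1 probe set, among 14497 genes tested. Liver of male F344 rats, an inbred strain, had been fixed in formalin, embedded in paraffin and laser-captured, and its RNA was amplified and read on Affymetrix Rat Gene ST 1.0 arrays. The 12 animals fell into 4 groups of 3, and the labels number the animals of a group as separate biological samples.

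Rapamycin foci and placebo foci were persistent lesions positive for GSTP, the placental glutathione S-transferase by which such lesions are recognised. Their rats had received diethylnitrosamine at 200 mg/kg on day 1, a pellet of 2.5 mg 2-acetylaminofluorene (AAF) with a release time of 14 days on day 14, and a partial hepatectomy on day 21 (the Solt-Farber protocol). On the day of surgery they were given a 21-day pellet, of rapamycin at 2.5 mg/kg/day in the first of these groups and of placebo in the second, and the livers were taken on day 70, after the pellet's release time had passed. AAF/PH liver came from rats with the same AAF pellet placed on day 1 and a partial hepatectomy on day 7, without diethylnitrosamine, and was taken on day 14 with oval cells, the progenitor-like cells of injured liver, as its labelled feature. Normal liver came from unmanipulated rats. The foci were therefore compared with livers of other rats and not with the tissue around them, and ages were not given.

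In the liver, growth hormone from the pituitary binds its receptor on hepatocytes, the receptor-bound kinase JAK2 phosphorylates STAT5B, and STAT5B enters the nucleus and switches on Igf1, Igfals and Socs2. IGF1 leaves the liver and circulates mostly in a complex with IGFBP3 and the acid-labile subunit encoded by Igfals, while IGFBP1 is a short-lived carrier whose gene is repressed by insulin. Adult hepatocytes respond to growth hormone far more than to IGF1, since they carry little IGF1 receptor, and rodent liver largely silences Igf2 after birth.

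Promoter sequences, from 250 bases before to 50 bases after the annotated start, were held by RefSeq (GRCr8) for 9 of the 10 genes, all but Socs2. 3 are shown because the values below set them apart: Igf1, the liver's main output, and the neighbouring genes Igfbp1 and Igfbp3, which have 0 annotated genes between them on chromosome 14 and moved differently. The Igf1 window is chr7:24172282-24172581 on the plus strand, the Igfbp1 window is chr14:86261027-86261326 on the plus strand, and the Igfbp3 window is chr14:86277895-86278194 on the minus strand. Capitals mark the letters CAAAACA, the core of the insulin response sequence known from IGFBP1 promoters, and each sequence runs 5′ to 3′.
Igf1: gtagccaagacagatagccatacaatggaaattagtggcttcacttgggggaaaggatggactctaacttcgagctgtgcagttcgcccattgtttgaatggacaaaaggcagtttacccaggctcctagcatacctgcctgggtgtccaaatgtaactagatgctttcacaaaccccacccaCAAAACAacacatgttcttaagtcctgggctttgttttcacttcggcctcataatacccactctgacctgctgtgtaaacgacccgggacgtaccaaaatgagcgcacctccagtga
Igfbp1: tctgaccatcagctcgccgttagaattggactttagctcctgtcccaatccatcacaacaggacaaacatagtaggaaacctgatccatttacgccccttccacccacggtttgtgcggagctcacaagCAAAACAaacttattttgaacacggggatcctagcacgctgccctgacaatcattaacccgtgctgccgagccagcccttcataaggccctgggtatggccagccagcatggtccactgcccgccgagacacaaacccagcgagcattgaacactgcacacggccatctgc
Igfbp3: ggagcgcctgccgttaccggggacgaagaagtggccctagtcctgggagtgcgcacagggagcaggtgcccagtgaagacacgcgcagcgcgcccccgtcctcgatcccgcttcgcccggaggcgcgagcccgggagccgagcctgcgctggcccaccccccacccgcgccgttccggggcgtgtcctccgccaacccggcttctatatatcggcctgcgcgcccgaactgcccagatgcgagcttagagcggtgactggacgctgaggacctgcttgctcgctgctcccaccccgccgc

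Searched on both strands, CAAAACA stood in 2 of the 10 windows of these genes, 67 bases before the start of Igf1 and 121 bases before the start of Igfbp1, and in 6.28% of 33469 promoter windows of the same length. That motif was chosen after the sequences had been looked at. The STAT5 letters TTCNNNGAA stood in 0 of the 10 windows and in 8.87% of all windows, which says only that these letters are not in these bases.

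Marker genes were read first. Gstp1, the gene of the lesion marker, read 1814.2 to 4363.3 in rapamycin foci, 3743.4 to 4639.3 in placebo foci, 151.9 to 216.0 in AAF/PH liver and 100.1 to 115.5 in normal liver, in units of probe-set intensity. Since GSTP was used to pick the foci, this is no finding. The summed intensity of 7 hepatocyte markers, albumin among them, lay between 21083.9 and 31470.5 in rapamycin foci, 24464.8 and 28468.3 in placebo foci, 17290.8 and 20352.4 in AAF/PH liver, and 30413.9 and 33385.5 in normal liver. 6 biliary and oval cell markers summed to 171.5 to 322.2, 266.1 to 529.8, 574.8 to 1038.8 and 152.0 to 171.2 over the same order of groups. Much of the AAF/PH sum was Afp, with geometric means of 449.7 in AAF/PH liver, 49.3 in placebo foci and 47.8 in rapamycin foci. Against AAF/PH liver 1 of these 6 markers passed as lower in placebo foci and 2 in rapamycin foci. Their median log2 differences were 0.15 and -0.50. Against normal liver 1 passed as higher in rapamycin foci, 3 in placebo foci and 4 in AAF/PH liver. Against normal liver 0 of the 7 hepatocyte markers passed as lower in rapamycin foci, 2 in placebo foci and 5 in AAF/PH liver, and the part of hepatocyte content in the differences below was not tested. Animal 3 of the rapamycin group stood apart: its values are the mean of 3 arrays, of which a pair read the same RNA, and the interquartile range of log2 intensity was 1.57 to 1.71 on these, against 1.98 to 2.80 on the 11 other arrays. It also had the lowest sum of its group in all 6 lists of cell type markers, and its part in the results is shown by giving values with and without it. No detection calls were used, and array medians ran from 19.84 to 25.37. Igf2, Igfbp2 and Igf1r throughout, Igfals in AAF/PH liver and Stat5b outside normal liver read close to these medians, and for them log2 differences are given with no fold, since their size is uncertain there. In such tissue samples fewer cells of a type and less RNA per cell cannot be told apart.

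The growth hormone receptor gene, its transducer Stat5b and the target genes Igf1, Igfals and Socs2 were lower in all 3 kinds of manipulated liver. Against normal liver, with limma's moderated test and Benjamini-Hochberg adjustment over all 14497 genes, 5 of the 10 genes passed an adjusted p of 0.05 in rapamycin foci (0 higher, 5 lower), where 6.53% of all genes passed, 1.6% higher and 4.93% lower. In placebo foci 6 did (1 higher, 5 lower), where 8.22% passed, 2.84% higher and 5.38% lower. In AAF/PH liver 7 did (2 higher, 5 lower), where 20% of all genes passed, 7.54% higher and 12.5% lower. Igf1, Igfals, Ghr, Stat5b and Socs2 made up the 5 that fell in each comparison, and the 3 comparisons share the normal animals. Since the 10 genes were chosen with earlier results known, their counts are a description and no test against the shares of all genes. The median log2 difference of the 10 genes was -0.42 in rapamycin foci, -0.55 in placebo foci and -0.89 in AAF/PH liver, beside 0.07, 0.04 and 0.12 over all genes. The 3 animals of a group lay wholly on 1 side of the normal animals for 6 genes in rapamycin foci, 7 in placebo foci and 9 in AAF/PH liver, and this held for 29.7%, 30.5% and 49.6% of all genes.

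**Figure D1:**
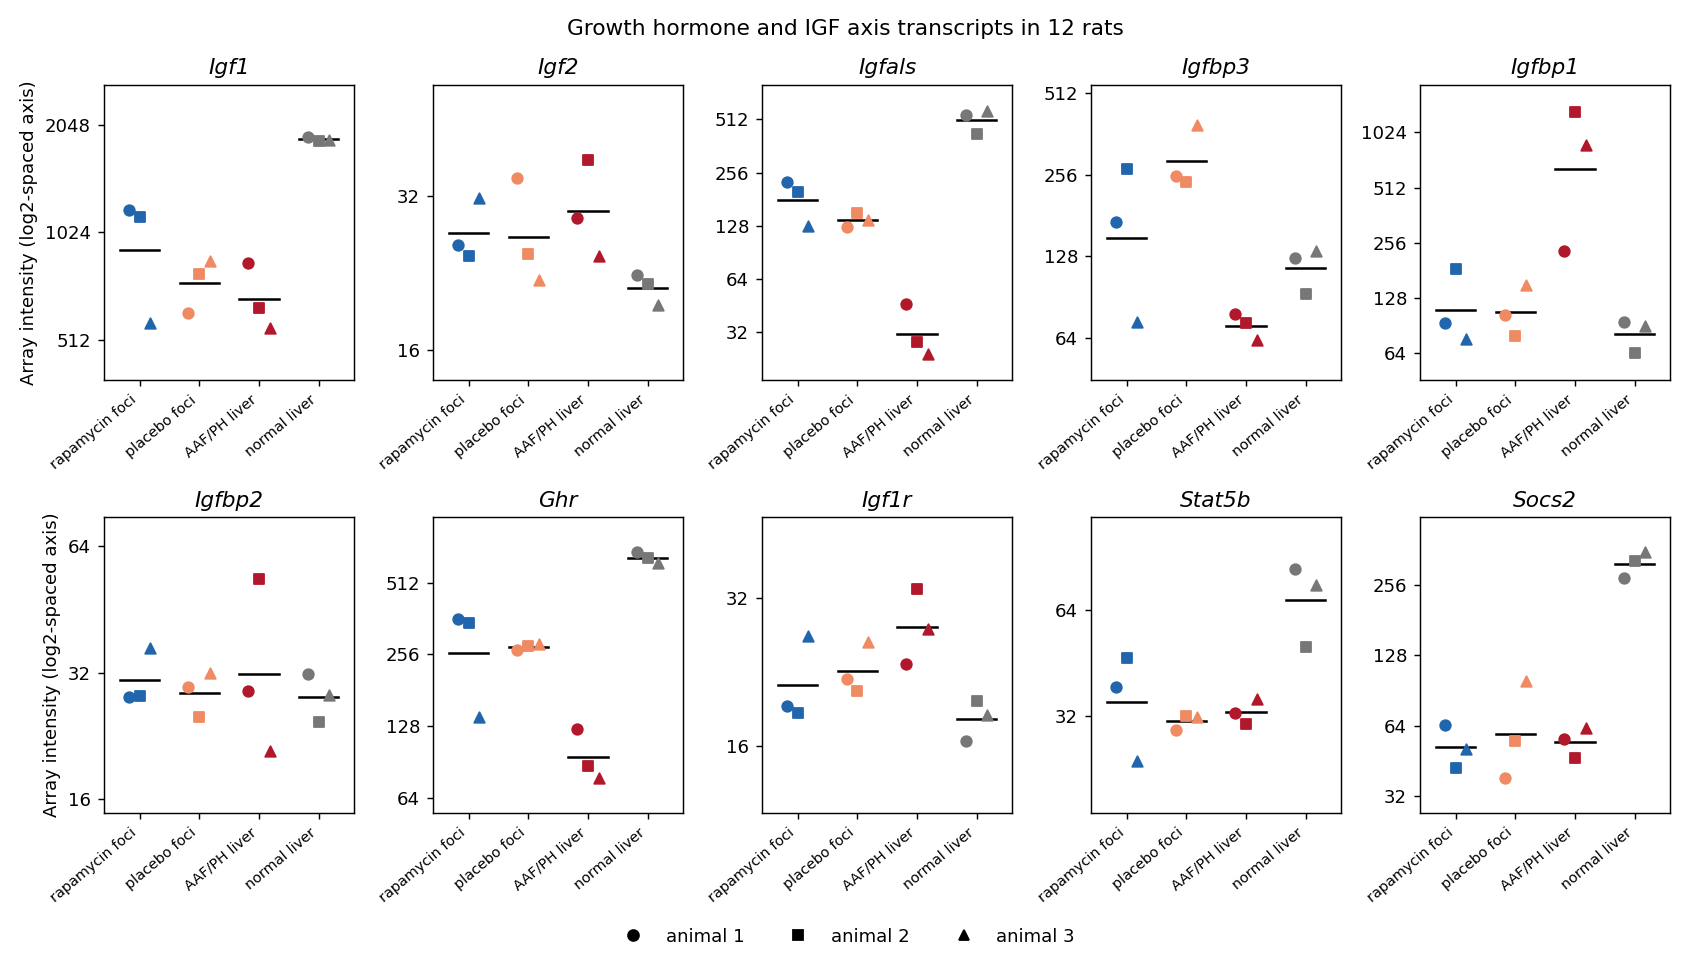
Probe-set intensity (log2-spaced axis) of the 10 genes, a panel each, with 1 point per animal and a bar at the geometric mean of the 3 animals, for rapamycin foci, placebo foci, AAF/PH liver and normal liver. The normal animals lie above all others for Igf1, Igfals, Ghr, Stat5b and Socs2, and every AAF/PH animal lies above all others for Igfbp1.

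Igf1, the secreted growth factor that liver makes under growth hormone (probe set 10894695), had intensities of 1179.5, 1128.8 and 571.9 in rapamycin foci, 607.0, 780.8 and 852.9 in placebo foci, 842.0, 629.9 and 552.1 in AAF/PH liver, and 1895.8, 1851.5 and 1858.2 in normal liver. The normal animals were nearly identical and every other animal was below them, while the 3 manipulated groups overlapped. Igf1 was 2.05-fold lower in rapamycin foci (log2 difference -1.03 ± 0.26, SE, adjusted p = 0.0288), 2.53-fold lower in placebo foci (-1.34 ± 0.26, adjusted p = 0.00457) and 2.81-fold lower in AAF/PH liver (-1.49 ± 0.26, adjusted p = 0.000988) than in normal liver. The call in rapamycin foci was lost when any 1 of the 3 normal animals was left out (adjusted p of 0.0603 to 0.125), with only the compared groups in the fit (0.121), with an intensity trend in the prior variance (0.064) and with the replicate number as a block (0.0523). Without rapamycin animal 3 the difference was -0.70.

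Igf2, the fetal counterpart of IGF1 (probe set 10726999), read 25.6, 24.4 and 31.7 in rapamycin foci, 34.6, 24.6 and 21.9 in placebo foci, 28.9, 37.6 and 24.3 in AAF/PH liver, and 22.3, 21.5 and 19.5 in normal liver. The rapamycin and AAF/PH animals lay just above the normal range, and placebo animal 3 fell inside it. The log2 differences from normal liver were 0.36 (95% interval -0.09 to 0.81) in rapamycin foci, 0.33 in placebo foci and 0.50 (0.05 to 0.95) in AAF/PH liver, and none passed the test (adjusted p = 0.275, 0.423 and 0.108), although the last did with only the compared groups in the fit (0.0417).

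Igfals, which encodes the acid-labile subunit and is made by hepatocytes under growth hormone (probe set 10732239), read 226.9, 197.6 and 127.8 in rapamycin foci, 124.9, 151.5 and 138.4 in placebo foci, 45.8, 28.0 and 23.8 in AAF/PH liver, and 542.7, 422.0 and 574.2 in normal liver. The AAF/PH animals were below all foci and all foci were below all normal animals. Igfals was 2.84-fold lower in rapamycin foci (-1.51 ± 0.26, adjusted p = 0.00419) and 3.69-fold lower in placebo foci (-1.88 ± 0.26, adjusted p = 0.000374) than in normal liver. In AAF/PH liver the fitted difference was -4.02 ± 0.26 (adjusted p = 3.29e-07), set against readings near the array medians.

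Igfbp3, the main carrier of IGF1 in blood, made in rat liver chiefly by non-parenchymal cells (probe set 10778390), did not follow its partner in the complex. It read 171.4, 267.9 and 73.7 in rapamycin foci, 253.7, 241.1 and 390.6 in placebo foci, 78.8, 72.6 and 62.9 in AAF/PH liver, and 126.7, 93.0 and 134.2 in normal liver. All placebo foci were above and all AAF/PH animals below the normal range, and rapamycin foci spanned it, with animal 3 the lowest. Igfbp3 was 2.47-fold higher in placebo foci than in normal liver (1.31 ± 0.36, adjusted p = 0.0342), a call that was lost without any 1 of the 6 animals (adjusted p of 0.0626 to 0.117), with median centring (0.117), with the replicate block (0.069) and with the first array alone for rapamycin animal 3 (0.057). The difference was 0.37 ± 0.36 in rapamycin foci (adjusted p = 0.484) and -0.71 ± 0.36 in AAF/PH liver (adjusted p = 0.166, and 0.00629 with only the compared groups in the fit). The summed intensity of 4 endothelial markers was 199.9 to 360.8 in rapamycin foci, 279.4 to 382.1 in placebo foci, 266.0 to 392.5 in AAF/PH liver and 429.8 to 450.4 in normal liver, and that of 6 macrophage markers was 296.7 to 494.2, 438.7 to 598.5, 597.5 to 719.3 and 501.9 to 718.8 in the same order. Their part in the Igfbp3 values was not tested. Without rapamycin animal 3 the difference in rapamycin foci was 0.88 with an adjusted p of 0.0324.

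Igfbp1, the insulin-repressed carrier (probe set 10774141), read 94.0, 184.6 and 77.2 in rapamycin foci, 103.5, 80.1 and 150.3 in placebo foci, 229.6, 1322.4 and 874.4 in AAF/PH liver, and 94.7, 64.2 and 90.6 in normal liver. AAF/PH animals were above every other animal but spread widely among themselves (SD of 1.32 on the log2 scale, n = 3). Igfbp1 was 7.84-fold higher in AAF/PH liver than in normal liver (2.97 ± 0.50, adjusted p = 0.000791), and the difference was 3.71 without AAF/PH animal 1 and 2.45 without AAF/PH animal 2. In rapamycin foci the difference was 0.43 (95% interval -0.64 to 1.497) and in placebo foci 0.39, with adjusted p-values of 0.562 and 0.709. The summed intensity of 8 stellate cell and matrix markers was 1660.8, 4603.0 and 2587.7 in AAF/PH animals 1, 2 and 3, in the same animal order as Igfbp1, against 552.0 to 777.5 in rapamycin foci, 740.8 to 1033.8 in placebo foci and 601.4 to 840.6 in normal liver. 5 of the 8 markers rose in AAF/PH liver, and their part in the rise of Igfbp1 was not tested.

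Igfbp2, a carrier that is high in fetal liver and in fasting (probe set 10924223), stayed within 20.9 and 53.4 in all 12 animals and overlapped between every manipulated group and normal liver. The log2 differences were 0.13 (95% interval -0.45 to 0.72) in rapamycin foci, 0.03 in placebo foci and 0.18 in AAF/PH liver, and the smallest adjusted p was 0.642.

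Ghr, the growth hormone receptor (probe set 10821632), read 360.6, 348.5 and 139.6 in rapamycin foci, 267.7, 277.7 and 282.0 in placebo foci, 125.1, 87.2 and 77.8 in AAF/PH liver, and 686.6, 647.7 and 619.0 in normal liver. All foci lay between the AAF/PH animals and the normal animals, and rapamycin animal 3 stood close to the AAF/PH range. Ghr was 2.50-fold lower in rapamycin foci (-1.32 ± 0.30, adjusted p = 0.0172), 2.36-fold lower in placebo foci (-1.24 ± 0.30, adjusted p = 0.017) and 6.87-fold lower in AAF/PH liver (-2.78 ± 0.30, adjusted p = 1.97e-05) than in normal liver. Without rapamycin animal 3 the difference in rapamycin foci was -0.88. The placebo call was lost in 4 of the 6 fits that left out 1 animal (placebo animals 1 and 2, normal animals 1 and 3, adjusted p of 0.0571 to 0.0814), and the rapamycin call without normal animal 1 or 3 (0.0899 and 0.0662) or with only the compared groups in the fit (0.105).

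Igf1r, the receptor of IGF1 (probe set 10707889), was dim throughout. It read 19.3, 18.7 and 26.8 in rapamycin foci, 21.9, 20.7 and 26.1 in placebo foci, 23.6, 33.4 and 27.8 in AAF/PH liver, and 16.4, 19.7 and 18.6 in normal liver. Placebo foci and AAF/PH animals were all above the normal range and rapamycin foci overlapped it. Igf1r was higher in AAF/PH liver than in normal liver (0.62 ± 0.19, adjusted p = 0.0371). The call was lost without any 1 of 5 of the 6 animals, AAF/PH animal 1 being the exception (adjusted p of 0.0504 to 0.158), after quantile normalization (0.0941), after centring each array on its median (0.112) and with the replicate block (0.0507). The differences of 0.23 in rapamycin foci and 0.33 in placebo foci did not pass (adjusted p = 0.429 and 0.382).

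Stat5b, the transcription factor that carries the growth hormone signal (probe set 10747494), read 38.8, 46.8 and 23.8 in rapamycin foci, 29.3, 32.1 and 31.8 in placebo foci, 32.6, 30.4 and 35.8 in AAF/PH liver, and 84.1, 50.2 and 75.8 in normal liver. Every normal animal was above every other animal, though normal animal 2 was close to rapamycin animal 2. Stat5b was lower in rapamycin foci (-0.96 ± 0.24, adjusted p = 0.0305), placebo foci (-1.14 ± 0.24, adjusted p = 0.00838) and AAF/PH liver (-1.06 ± 0.24, adjusted p = 0.00719) than in normal liver. The call in rapamycin foci was lost without rapamycin animal 3 (-0.68, adjusted p = 0.0522) and without normal animal 1 or 3 (0.174 and 0.137), with only the compared groups (0.159) and with the replicate block (0.0664), and the call in placebo foci without normal animal 1 (0.0611).

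Socs2, the target gene whose product damps growth hormone signalling (probe set 10901996), was far below normal liver in all 3 groups. It read 64.3, 42.2 and 50.8 in rapamycin foci, 38.1, 54.9 and 99.4 in placebo foci, 56.2, 46.5 and 62.6 in AAF/PH liver, and 273.4, 322.8 and 355.3 in normal liver. The manipulated groups overlapped one another and lay well below the normal animals, with placebo animal 3 the highest among them. Socs2 was 6.10-fold lower in rapamycin foci (-2.61 ± 0.29, adjusted p = 0.000151), 5.32-fold lower in placebo foci (-2.41 ± 0.29, adjusted p = 0.000111) and 5.77-fold lower in AAF/PH liver (-2.53 ± 0.29, adjusted p = 3.12e-05) than in normal liver. Apart from placebo animal 3, the readings outside normal liver were not far above the array medians, so the sizes of these folds are uncertain.

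**Figure D2:**
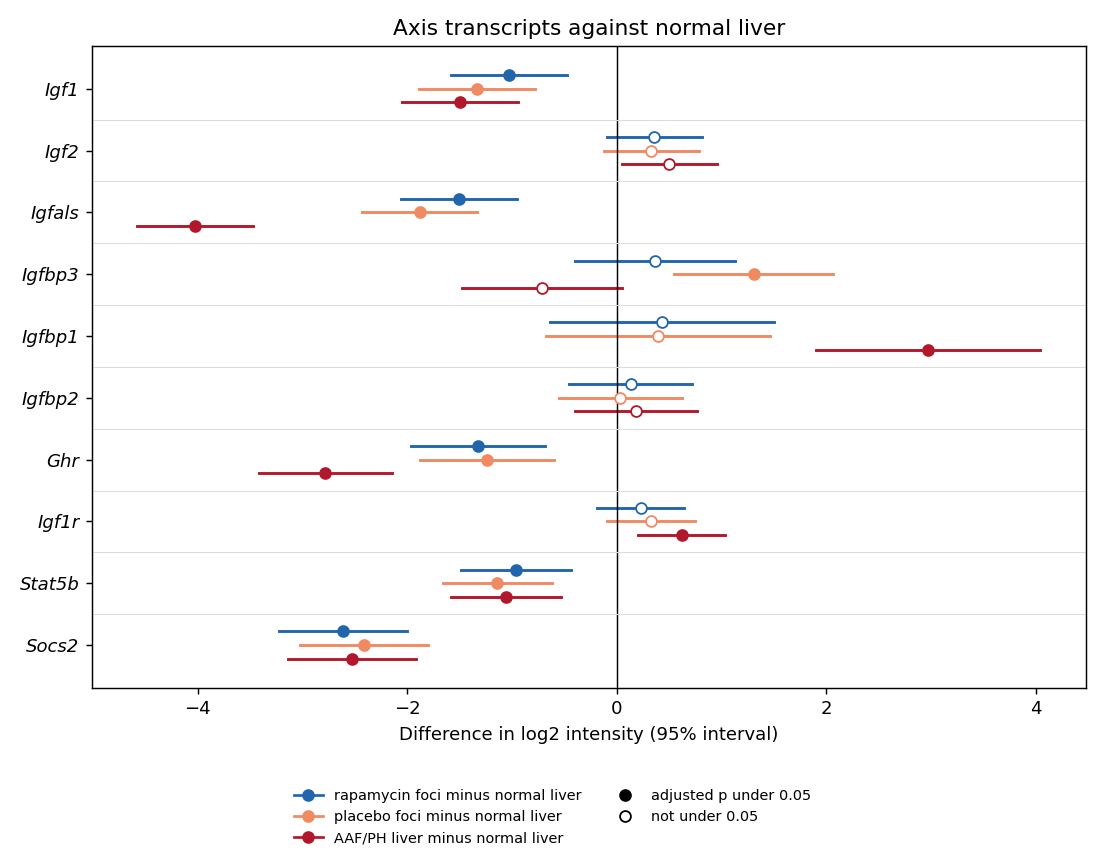
Log2 difference in intensity from normal liver for the 10 genes, with 95% intervals from limma, for rapamycin foci, placebo foci and AAF/PH liver; filled points passed an adjusted p of 0.05. Socs2 lies between -2.61 and -2.41 in all 3 groups, whereas Igfals lies at -1.51 and -1.88 in the foci and at -4.02 in AAF/PH liver.

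Set against AAF/PH liver, both kinds of foci differed in Ghr, Igfals and Igfbp1, and placebo foci also in Igfbp3, while no other gene passed. In rapamycin foci 3 of the 10 genes passed (2 higher, 1 lower), where 4.01% of all genes passed, 2.14% higher and 1.87% lower. In placebo foci 4 passed (3 higher, 1 lower), where 4.19% passed, 2.62% higher and 1.57% lower. Igfals was higher in rapamycin foci (2.52 ± 0.26, adjusted p = 5.99e-05) and in placebo foci (2.14 ± 0.26, adjusted p = 0.000189) than in AAF/PH liver, whose readings were near the array medians. Ghr was 2.74-fold higher in rapamycin foci (1.46 ± 0.30, adjusted p = 0.0106) and 2.91-fold higher in placebo foci (1.54 ± 0.30, adjusted p = 0.00733). Both comparisons use the same AAF/PH animals.

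Against AAF/PH liver the neighbouring carrier genes of chromosome 14 differed in opposite directions in placebo foci. The signs were the same in rapamycin foci, where Igfbp3 did not pass. Against normal liver both differences in placebo foci were positive, 0.39 for Igfbp1, which did not pass, and 1.31 for Igfbp3. Igfbp1 was 5.83-fold lower in rapamycin foci (-2.54 ± 0.50, adjusted p = 0.00812) and 5.97-fold lower in placebo foci (-2.58 ± 0.50, adjusted p = 0.00761) than in AAF/PH liver, and without AAF/PH animal 3 both calls were lost (0.0585 and 0.0502). Without AAF/PH animal 1 the Igfbp1 differences were -3.29 in rapamycin foci and -3.32 in placebo foci. Igfbp3 was 4.05-fold higher in placebo foci than in AAF/PH liver (2.02 ± 0.36, adjusted p = 0.00377), and the difference in rapamycin foci was 1.08 ± 0.36 (adjusted p = 0.133, and 0.0245 after quantile normalization). Without rapamycin animal 3 the Igfbp3 difference in rapamycin foci was 1.59 (adjusted p = 0.000123), and that of Igf1 was 0.80 (adjusted p = 0.00946) in place of 0.46 (adjusted p = 0.541). The Ghr call in rapamycin foci was lost without AAF/PH animal 2 or 3 or rapamycin animal 1 (adjusted p of 0.0547 to 0.0709), and with only the compared groups in the fit the Ghr and Igfbp1 calls in rapamycin foci were lost (0.115 and 0.0777). The groups did not overlap for 3 genes in rapamycin foci and 4 in placebo foci, and for 13.6% and 25.7% of all genes.

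The other genes showed differences from AAF/PH liver whose intervals crossed 0. In placebo foci Socs2 differed by 0.12 (95% interval -0.49 to 0.73), Stat5b by -0.08 (-0.61 to 0.44) and Igf1 by 0.15 (-0.40 to 0.71). In rapamycin foci Socs2 differed by -0.08 (-0.69 to 0.53) and Stat5b by 0.09 (-0.43 to 0.62). The differences there were larger for Igf1 (0.46, -0.09 to 1.01) and Igf1r (-0.39, -0.81 to 0.03).

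Whether rapamycin left a lasting mark was addressed by comparing the foci with each other, and there no gene of the axis passed. With limma 0 of the 10 genes, and 0% of all genes, passed an adjusted p of 0.05, and at an unadjusted p under 0.05 the counts were 1 of the 10 and 483 of all genes (3.33%). The 1 gene was Igfbp3, lower in rapamycin foci by -0.94 (95% interval -1.70 to -0.18, unadjusted p = 0.019, adjusted p = 0.985). With 1 animal left out at a time the Igfbp3 difference ran from -1.36 to -0.43, the latter without rapamycin animal 3. The difference was 0.30 for Igf1 (-0.25 to 0.86), 0.38 for Igfals (-0.18 to 0.93), -0.09 for Ghr (-0.72 to 0.55), 0.18 for Stat5b (-0.35 to 0.70) and -0.20 for Socs2 (-0.81 to 0.41). It was 0.03 for Igfbp1 (-1.04 to 1.10), 0.10 for Igfbp2 (-0.49 to 0.68), 0.03 for Igf2 (-0.42 to 0.48) and -0.10 for Igf1r (-0.51 to 0.32). A missed threshold does not show that the foci were alike. The 3 rapamycin and 3 placebo animals overlapped for all 10 genes, and did not overlap for 6.04% of all genes.

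**Figure D3:**
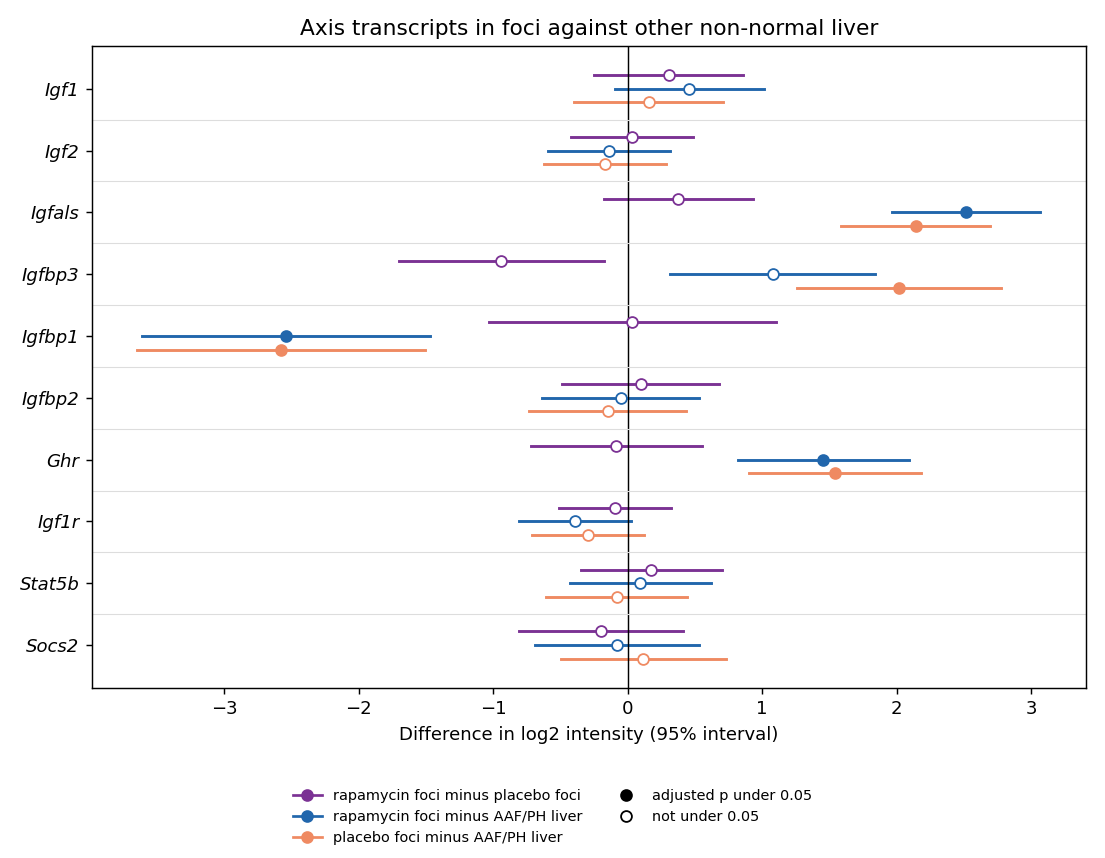
Log2 difference in intensity for the 10 genes in rapamycin foci minus placebo foci, rapamycin foci minus AAF/PH liver and placebo foci minus AAF/PH liver, with 95% intervals from limma; filled points passed an adjusted p of 0.05. Igfals and Ghr are higher and Igfbp1 lower in both kinds of foci than in AAF/PH liver, and no point for rapamycin foci minus placebo foci is filled.

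Of 57 further genes listed around the axis, 46 were measured. Against normal liver 12 passed in rapamycin foci (1 higher, 11 lower), 14 in placebo foci (2 higher, 12 lower) and 22 in AAF/PH liver (6 higher, 16 lower), with median log2 differences of -0.32, -0.35 and -0.27. The shares of all genes that passed were 6.53% in rapamycin foci (1.6% higher, 4.93% lower), 8.22% in placebo foci (2.84% higher, 5.38% lower) and 20% in AAF/PH liver (7.54% higher, 12.5% lower). The lists were drawn up with earlier results of these data known. Of rapamycin foci against placebo foci, 0 passed.

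Of 10 measured genes listed for restraint of the signal, among them the transcription factor Onecut1, which is no inhibitor of it, 3 passed in rapamycin foci (1 higher, 2 lower), 2 in placebo foci (both lower) and 5 in AAF/PH liver (1 higher, 4 lower) against normal liver. Onecut1 is 1 of those lower in each group. Cish, a STAT5 target whose product competes at the receptor much as SOCS2 does, read 39.2, 37.2 and 33.5 in rapamycin foci, 27.4, 74.2 and 149.0 in placebo foci, 37.3, 45.3 and 40.1 in AAF/PH liver, and 239.4, 238.0 and 251.6 in normal liver. Its differences from normal liver were -2.73 in rapamycin foci, -1.85 in placebo foci and -2.57 in AAF/PH liver, and all passed. Cish readings in rapamycin foci and AAF/PH liver were not far above the array medians, so these sizes are uncertain. In placebo foci Socs2, Cish and Igf1 had the same animal order, lowest in animal 1 and highest in animal 3, whereas in rapamycin foci and in AAF/PH liver the 3 genes did not share 1 order.

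**Figure D4:**
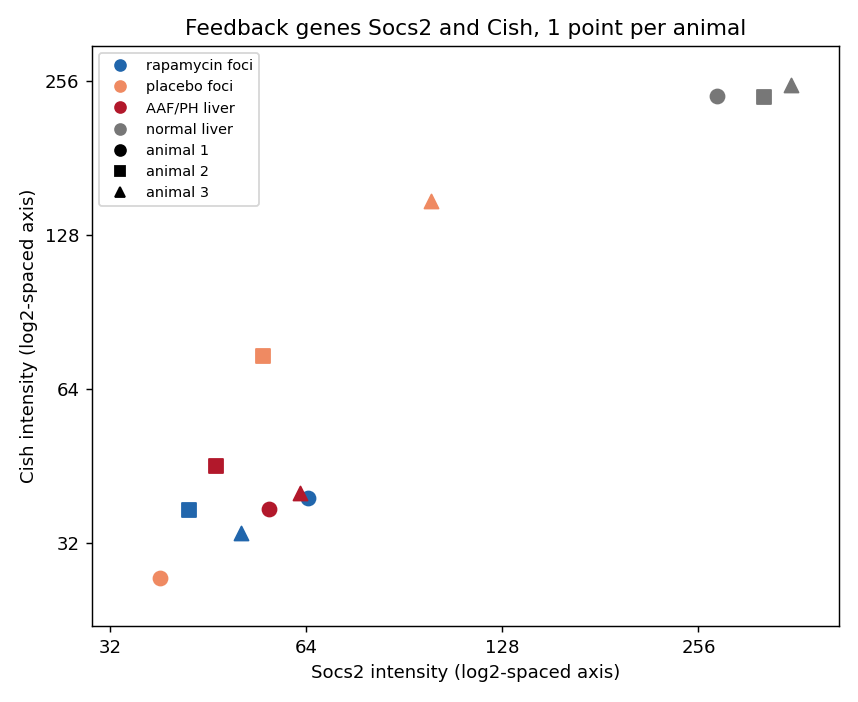
Cish intensity against Socs2 intensity (both log2-spaced axes), 1 point per animal, coloured by group and shaped by animal number. The normal animals form a group at the upper right, and placebo animal 3 is the nearest to it, at 99.4 for Socs2 and 149.0 for Cish.

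Onecut1, a hepatocyte transcription factor that growth hormone acts on, fell by 1.89 in rapamycin foci, by 1.72 in placebo foci and by 0.90 in AAF/PH liver on the log2 scale. Socs1, an inhibitor of cytokine receptor kinases, rose by 0.70 in rapamycin foci, and its difference in placebo foci was 0.62 (adjusted p = 0.059). In AAF/PH liver Grb14 (-1.26), an adaptor that inhibits the insulin receptor, and Bcl6 (-1.19), a repressor that competes with STAT5, fell, and Grb10 (0.89), an adaptor that restrains insulin and IGF1 receptors, rose. Every Grb10 reading was below every array median, so the size of its rise is uncertain.

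Among 5 related receptors Egfr, which growth hormone keeps high in liver, fell in all groups, with differences of -1.30 in rapamycin foci, -1.97 in placebo foci and -1.19 in AAF/PH liver. Insr, the insulin receptor, fell (-1.31) and Igf2r, the receptor that clears IGF2, rose (0.74) in AAF/PH liver, and Igf2r was lower in rapamycin foci than in AAF/PH liver (-0.99). Igf2r read 68.1, 73.4 and 42.0 in rapamycin foci, with animal 3 the lowest. It read 78.1, 54.9 and 91.4 in placebo foci, where the difference from AAF/PH liver did not pass. Of 11 kinases, adaptors and factors downstream, 1 passed in rapamycin foci and 0 in placebo foci or AAF/PH liver, beside 6.53%, 8.22% and 20% of all genes in rapamycin foci, placebo foci and AAF/PH liver. It was Pik3r1, a regulatory subunit of phosphoinositide 3-kinase (-1.24, adjusted p = 0.0437). Pik3r1 read 126.0, 159.7 and 49.8 in rapamycin foci, with animal 3 far the lowest, and 278.5, 181.4 and 261.1 in normal liver. Its range was 103.0 to 128.8 in placebo foci and 93.7 to 148.2 in AAF/PH liver, also below the normal animals. The lower level is therefore not particular to rapamycin foci, although only there did it pass. The difference for Pik3r1 was -1.02 in placebo foci (adjusted p = 0.0877) and -1.01 in AAF/PH liver (adjusted p = 0.0509).

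Of 8 other binding proteins and their proteases, Htra1, a protease that cleaves IGF carriers, fell in rapamycin foci (-1.08), placebo foci (-1.06) and AAF/PH liver (-1.04). Igfbp4 fell in placebo foci (-0.83) and AAF/PH liver (-0.71), with a difference of -0.62 in rapamycin foci (adjusted p = 0.0577). Igfbp5 rose in placebo foci (0.83) and AAF/PH liver (1.03). H19, the imprinted neighbour of Igf2, rose in AAF/PH liver (0.74, adjusted p = 0.0209), and its difference in rapamycin foci was 0.63 (adjusted p = 0.0831).

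Of 4 measured genes for hormones and receptors that act on the axis, Inhba, which encodes the activin A subunit, read 35.3, 29.5 and 34.4 in rapamycin foci, 23.3, 19.1 and 20.2 in placebo foci, 31.0, 25.3 and 23.4 in AAF/PH liver, and 221.0, 123.0 and 180.2 in normal liver. It fell in all 3 groups, with log2 differences from normal liver of -2.37, -3.03 and -2.69 in that order. The readings in placebo foci and AAF/PH liver were near the array medians and those in rapamycin foci not far above them, so these sizes are uncertain and have no order. Fst, which encodes the activin antagonist follistatin, read 15.4, 15.7 and 20.3 in rapamycin foci, 17.4, 14.6 and 17.6 in placebo foci, 44.2, 126.7 and 46.1 in AAF/PH liver, and 12.98, 16.8 and 11.9 in normal liver. It rose in AAF/PH liver against normal liver (2.21, adjusted p = 0.000222) and was lower in rapamycin foci (-1.91) and placebo foci (-1.95) than in AAF/PH liver. Fst readings in normal liver and in both kinds of foci were close to or below the array medians, so the sizes of its differences are uncertain. Fgfr4, the bile-acid hormone receptor of hepatocytes, fell in all 3 groups (-0.99, -1.11 and -0.66 in the order above) and Fgf21, a fasting hormone that lowers growth hormone signalling in mouse liver, in AAF/PH liver (-1.04).

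Of 6 measured genes whose level in rat liver follows the male or female rhythm of growth hormone, 4 fell in rapamycin foci, and in both placebo foci and AAF/PH liver 5 fell and 1 rose. Cyp2c11, the male cytochrome P450, differed from normal liver by -2.80 in rapamycin foci, -4.25 in placebo foci and a fitted -7.00 in AAF/PH liver, where its readings of 14.5, 13.6 and 12.03 were below every array median and the size is not measured. Cyp2c12, the female one, differed by 1.75 (adjusted p = 0.0542), 2.44 and 1.73 in the same order. In rapamycin foci Cyp2c12 read 448.6, 641.8 and 106.9, with animal 3 far the lowest, against 83.6, 106.4 and 90.0 in normal liver. These cytochrome genes have near-identical relatives, so their probe sets may read more than 1 gene.

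**Figure D5:**
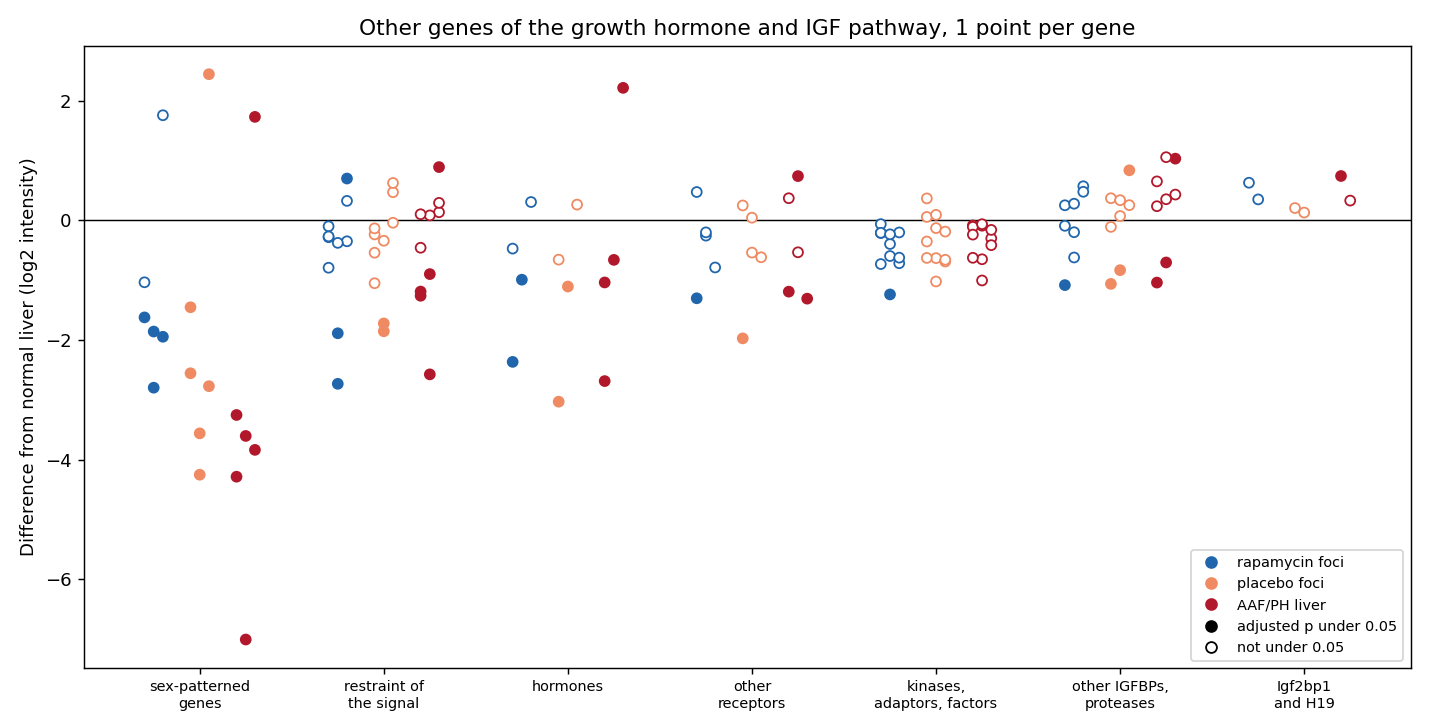
Log2 difference in intensity from normal liver for the 46 further genes, by list, with a point each for rapamycin foci, placebo foci and AAF/PH liver; filled points passed an adjusted p of 0.05. Cyp2c11 in AAF/PH liver lies lowest, at a fitted -7.00 that rests on readings below the array medians, and the downstream kinases and adaptors hold 1 filled point, Pik3r1 in rapamycin foci.

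The genes most like Igf1 over the 12 animals, by the root mean square difference of log2 intensity relative to each gene's normal mean, were F10 (0.129), which encodes coagulation factor X, Apoc4 (0.166), an apolipoprotein, and Ocel1 (0.167). F10 differed from normal liver by -1.16 in rapamycin foci, -1.43 in placebo foci and -1.41 in AAF/PH liver. Those most like Igfbp1 were the collagen genes Col1a2 (0.548) and Col3a1 (0.554) and the intermediate filament gene Vim (0.636), at larger distances. Col1a2 differed by 0.63 in rapamycin foci, 0.96 in placebo foci and 2.68 in AAF/PH liver, and it was also on the stellate cell and matrix list.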

How the data were processed

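Expression was measured on 14 arrays from 12 animals. The deposited table holds linear intensities of 28826 probe sets, from 2.143 to 14037.8, and the submitters' processing notes name Partek 6.6 and RMA, without settings. The authors' intensities were taken to log2 with no pseudocount. For rapamycin animal 3, log2 values of its 3 arrays were averaged, giving 1 animal. Genes were named from the platform annotation: 15209 probe sets have 1 symbol, 306 several and 13311 none; the probe set with the highest mean stood for the 494 genes with several. limma 3.58.1 in R 4.3.3 was fitted to 14497 genes with 4 group means (8 residual and 6.38 prior degrees of freedom) for 6 comparisons, Benjamini-Hochberg adjusted over all genes within a comparison, and tested on simulated data. Passing means an adjusted p under 0.05; intervals are 95% and come from the fit. The number of animals limits the precision.

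Alternatives were quantile normalization, median centring, a filter on dim genes (10872 kept), an intensity trend in the prior, only the compared groups, a replicate block, other values for rapamycin animal 3, probe-set means and leaving out each animal. The 10 genes and all lists were chosen with earlier results of these data known. The text names all 10 genes, the listed genes that passed or had small p-values, and the 3 genes nearest in pattern to Igf1 and to Igfbp1; F10 and Col1a2 were picked from these as the nearest.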

Additional observations from a re-analysis of the deposited data

How the results depend on the processing

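The calls of Igfals and Socs2 against normal liver held under every alternative run, as did those of Igf1, Ghr, Igfbp1 and Stat5b in AAF/PH liver and of Igf1 in placebo foci. Against AAF/PH liver, those of Igfals in rapamycin and placebo foci and of Ghr and Igfbp3 in placebo foci held too. Of 960 alternative values of the 10 genes, 43 lost a call, 6 gained one and 36 changed sign, all 36 without passing the test either way; the cause was not tested. Under quantile normalization 1160 genes passed in rapamycin foci and 1040 in placebo foci against AAF/PH liver, and under median centring 375 and 399. Median centring moved the median log2 difference of all genes to -0.10 in rapamycin foci and -0.08 in AAF/PH liver against normal liver (0.07 and 0.12 as reported), and the share of calls that were higher to 10% and 20% (24.5% and 37.7% as reported).

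With only the compared groups in the fit, which leaves fewer samples for the spread, 210 genes (2 of the 10) passed in rapamycin foci, 2297 in placebo foci and 5115 in AAF/PH liver against normal liver, and 204 (1 of the 10) in rapamycin foci and 1334 in placebo foci against AAF/PH liver. Same-numbered deviations had no common sign: they correlated from -0.68 to 0.38, over 0.1 in 7 of 18 pairs. The range was -0.68 to -0.38 between rapamycin and placebo foci. It was 0.02 to 0.30 between AAF/PH and normal liver, and -0.01 to 0.34 between placebo foci and AAF/PH liver. What the replicate numbers stand for was not tested. With the replicate block 555 genes, 3 of the 10 among them, passed in rapamycin foci against normal liver, and calls were lost for Igf1r in AAF/PH liver (adjusted p = 0.0507), Igfbp3 in placebo foci (0.069), and Igf1 (0.0523) and Stat5b (0.0664) in rapamycin foci.

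Leaving out 1 animal at a time, all genes passing numbered 224 to 2051 in rapamycin foci, 606 to 1106 in placebo foci and 1552 to 2717 in AAF/PH liver against normal liver, 297 to 2058 in rapamycin foci and 330 to 448 in placebo foci against AAF/PH liver, and 0 to 3 between the foci. Of the 10 genes 2 to 5, 3 to 5, 6 to 7, 1 to 5, 3 to 4 and 0 passed in that order.

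Sign changes under quantile normalization were Igfbp2 in placebo foci against normal liver (-0.0341), Ghr (0.0182) and Igf2 (-0.00699) between the foci, and Igf1 in placebo foci against AAF/PH liver (-0.0843). Under median centring they were Igfbp2 against normal liver in rapamycin foci (-0.0397), placebo foci (-0.0723) and AAF/PH liver (-0.00913), Igf2 (-0.0354) and Igfbp1 (-0.0301) between the foci, and Stat5b in placebo foci against AAF/PH liver (0.00335). With the first array alone for rapamycin animal 3, Stat5b was -0.00376 in rapamycin foci against AAF/PH liver. With 1 animal left out, differences between the foci spanned 0 for Ghr (-0.32 to 0.36), Igf1r (-0.26 to 0.000764), Igf2 (-0.11 to 0.22), Igfbp1 (-0.34 to 0.29), Igfbp2 (-0.0299 to 0.17), Socs2 (-0.52 to 0.18) and Stat5b (-0.0314 to 0.46). So did those against AAF/PH liver for Igf2 (-0.29 to 0.0274), Igfbp2 (-0.36 to 0.32), Socs2 (-0.24 to 0.065) and Stat5b (-0.11 to 0.37) in rapamycin foci and Igfbp2 (-0.45 to 0.22) and Socs2 (-0.26 to 0.44) in placebo foci, and those against normal liver for Igfbp3 in rapamycin foci (-0.0519 to 0.88) and Igfbp2 in placebo foci (-0.065 to 0.13) and AAF/PH liver (-0.19 to 0.49). Igf2, Igfbp2, Igf1r, Igfals in AAF/PH liver, Stat5b outside normal liver and Cyp2c11 in AAF/PH liver read close to or below the array medians of 19.84 to 25.37. So did Grb10 throughout, Fst in normal liver and both kinds of foci, and Igfbp5 and H19 in normal liver. The same held for Fgf21 in AAF/PH liver and for Inhba in placebo foci and AAF/PH liver. Not far above these medians were Inhba in rapamycin foci, Cish in rapamycin foci and AAF/PH liver, and Socs2 outside normal liver except in placebo animal 3. The sizes of the differences of all these genes are uncertain.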
